A study of Mus musculus with 6 samples.

Results

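The genes described here encode kinases that phosphorylate the microtubule-associated protein tau, activators of 1 of those kinases, and subunits of the phosphatases that remove phosphate from it. They were chosen by name from a list of 36 symbols, which leaves out Mapt, the tau gene itself, and each symbol matched 1 of the 56923 genes of the deposited table. Of the 36 members, 28 are kinases or kinase activators and 8 are phosphatase subunits. All 36 passed the filter on low values, 10 or more normalized counts in 3 or more of the 6 libraries, which 16411 genes of the table passed. The rule goes by name and sets no threshold on a measured value.

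The tissue was the locus coeruleus, the small pontine cell group from which most noradrenaline fibres of the brain arise, punched from slices and profiled by bulk poly-A RNA sequencing. By its title the series concerns tau phosphorylation in this nucleus in relation to sleep and neuronal excitability. Wild-type mice (WT) gave 3 libraries, numbered 62, 63 and 66, and 5xFAD transgenic mice gave 3, numbered 64, 65 and 79. The 5xFAD line expresses human amyloid precursor protein and presenilin with familial Alzheimer's disease mutations from mouse Thy1 regulatory sequence. That promoter is active in many kinds of neuron and not in the locus coeruleus alone, and no tau transgene is part of the line. Age and sex are not given in the labels used here, and nothing says whether each number is a separate animal, so p-values measure only the spread between these samples, which may be technical.

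Tau stabilizes axonal microtubules, and phosphate at many of its serines, threonines and tyrosines loosens that binding. Proline-directed kinases such as GSK3, CDK5 and the MAP kinases act on sites outside the repeats that touch the microtubule, and MARK kinases act within the repeats. PP2A, a trimer of a catalytic, a scaffold and a regulatory subunit, accounts for most tau phosphatase activity in brain. Much of the control of these enzymes lies in phosphorylation, calcium, cyclic AMP and partner proteins, which transcript levels do not report.

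The libraries held 15158712 to 20079349 reads assigned to genes. Markers of noradrenergic neurons had reads in every library, with the sum of 9 markers at 8063 to 14496 normalized counts in WT and 11284 to 15962 in 5xFAD. WT 66 was the low library, against 12822 and 14496 in WT 62 and 63, and 8 of the 9 had higher means in 5xFAD. Cerebellar markers were also present and varied widely between libraries. The sum of 5 Purkinje cell markers was 4014, 19982 and 5237 in WT 62, 63 and 66 and 12297, 26187 and 7233 in 5xFAD 64, 65 and 79. The sum of 7 granule cell markers was 2820, 9857 and 4081 in WT against 8608, 12420 and 5304 in 5xFAD, with all 7 higher in mean in 5xFAD, 1 of them at an unadjusted p under 0.05 and 0 past the limma test. WT 63 and 5xFAD 65 were the highest of their genotype for both lists, 5xFAD 64 was the next highest, and the main counts are given with and without WT 63 and 5xFAD 65. In bulk tissue, fewer cells of a type and less RNA per cell cannot be told apart.

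None of the 36 genes passed the test between the genotypes, and their differences were small. Normalized counts (reads divided by a size factor per library) were compared as log2(normalized count + 1) with limma, with p-values adjusted over all 16411 tested genes, and each log2 difference (log2 fold change) is the mean in 5xFAD minus that in WT, with n = 3 and 3. By that test 0 members passed an adjusted p of 0.05, against 0.00609% of all tested genes (1 gene, Thy1), and 2 members had an unadjusted p under 0.05, against 2.32% of all tested genes. Of these 2, 1 was higher in 5xFAD (1.27% of all tested genes) and 1 lower (1.05%). The edgeR test on recovered reads also called 0 members, with 2 at an unadjusted p under 0.05 (2.3% of all tested genes), and DESeq2 called 0 (0.0244% of all tested genes), with 1 at an unadjusted p under 0.05 (0.926%). Values were higher in 5xFAD for 15 members and lower for 21, where 50.2% of all tested genes were higher and 49.8% lower. The median log2 difference was −0.01 over the members and 0.00053 over all tested genes, and the members ranged from −0.14 for Mapk10 to 0.22 for Mapk14. The median over the members moved with single libraries and was 0.0031 without 5xFAD 65 (19 higher, 17 lower), −0.03 without 5xFAD 79 (12 higher, 24 lower) and 0.0086 without both WT 63 and 5xFAD 65. The 3 libraries of each genotype did not overlap for 3 members (Mapk14, Mapk10 and Cdk5r2), against 7.42% of all tested genes.

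**Figure D1:**
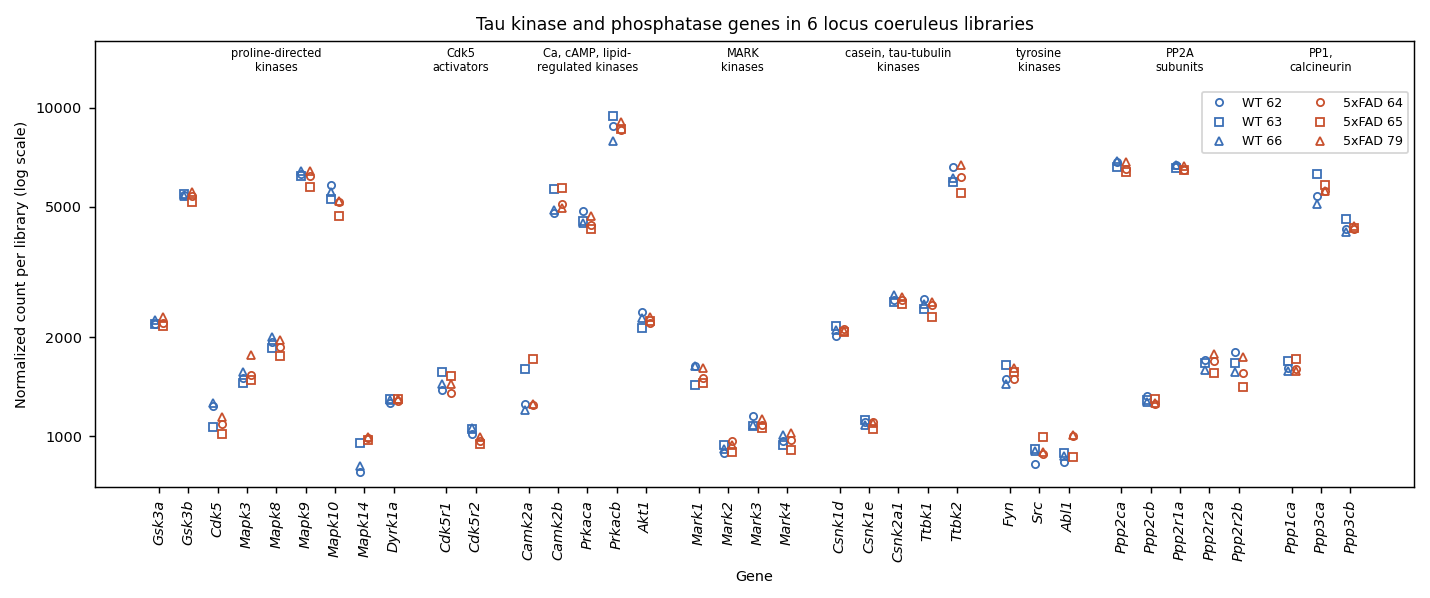
Normalized count (log axis) of each of the 36 genes in each of the 6 libraries, grouped by role; each point is 1 library, blue for WT and red for 5xFAD, with circles for WT 62 and 5xFAD 64, squares for WT 63 and 5xFAD 65 and triangles for WT 66 and 5xFAD 79. The genotypes overlap for all genes except Mapk14, Mapk10 and Cdk5r2, and the 2 square symbols lie above the others for Camk2a.

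The size of change that these libraries leave room for was narrow. The 95% interval of the fold change stayed within 1.5-fold in either direction for all 36 members, against 71.4% of all tested genes. It stayed within 1.25-fold for 34 members (47.2% of all tested genes), the exceptions being Mapk14 and Camk2a, and within 1.2-fold for 30 (36.3%). It stayed within 1.1-fold for 9 members (2.7% of all tested genes). The members are well-read genes, with means of 904 to 8730 normalized counts. Among the 4298 tested genes with a mean at least as high as the lowest member, 97.8% had an interval within 1.5-fold, 89.9% within 1.25-fold, 81.3% within 1.2-fold and 10.2% within 1.1-fold. The median SD within groups was 0.0678 on the log2 scale over the members, 0.0754 over those 4298 genes and 0.138 over all tested genes.

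**Figure D2:**
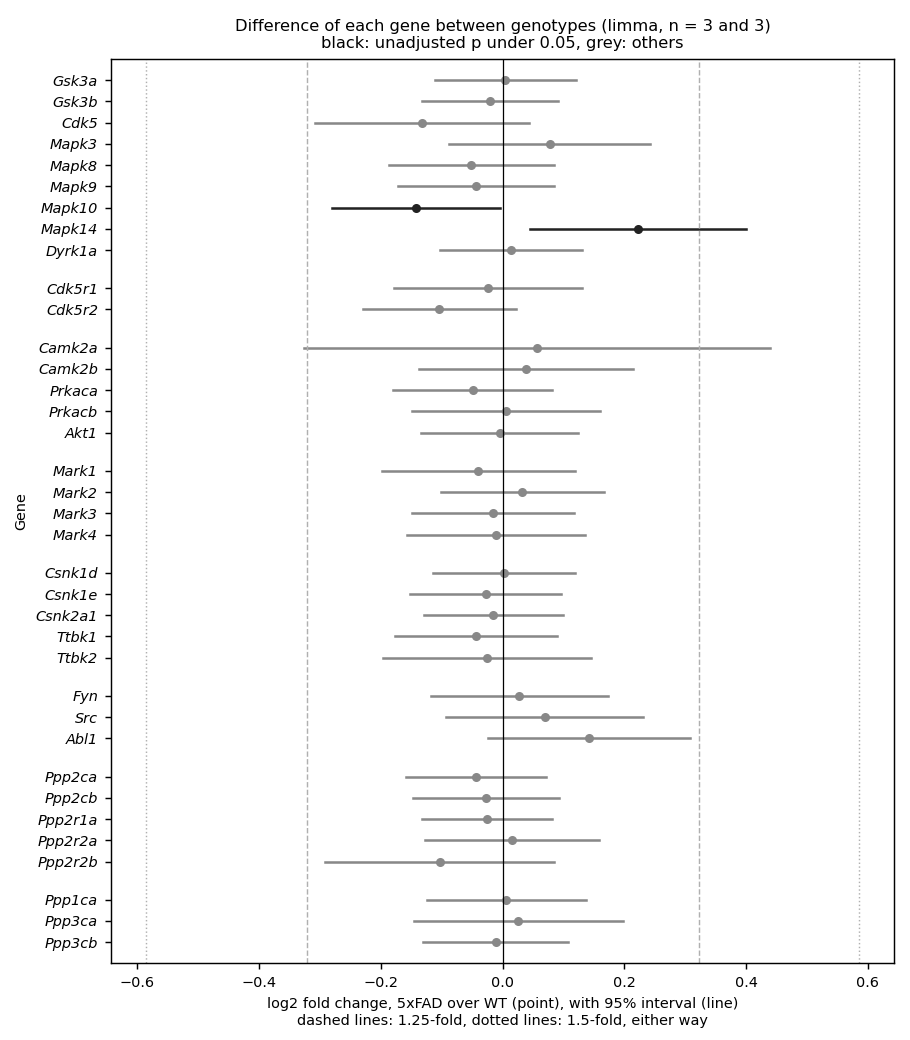
Log2 fold change of each gene, 5xFAD over WT (points), with its 95% interval from limma (lines), n = 3 and 3; dashed lines mark 1.25-fold and dotted lines 1.5-fold in either direction, and black marks an unadjusted p under 0.05. Every interval lies inside the dotted lines, and the intervals of Mapk14 and Camk2a cross a dashed line.

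Glycogen synthase kinase 3, a main proline-directed tau kinase that is switched off by Akt, was read at nearly the same level in all libraries. Gsk3b (ENSMUSG00000022812.15) read 5438, 5477 and 5397 in WT against 5391, 5174 and 5528 in 5xFAD. The genotypes overlapped, and the log2 difference was −0.02 (SE 0.05, 95% interval −0.13 to 0.09). Gsk3a (ENSMUSG00000057177.13), the other isoform, read 2198, 2203 and 2254 in WT against 2208, 2166 and 2304 in 5xFAD, with a log2 difference of 0.0047 (SE 0.05, 95% interval −0.11 to 0.12). For each isoform the interval excluded a change of more than 1.1-fold in either direction. The count of Gsk3a is less certain, since 19.0% of the 50-base stretches of its transcripts also occur in transcripts of other genes, mainly 9130221H12Rik. Counts do not give the order of the isoforms, since Gsk3b transcripts are longer. Per kb of exon in GENCODE M21, the WT level of Gsk3a was 982 ± 13.8 and that of Gsk3b 652 ± 4.81 normalized counts (SD, n = 3). Akt1, the kinase upstream, had a log2 difference of −0.0047 (SE 0.06) and read 2134 to 2383 over the 6 libraries.

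Cyclin-dependent kinase 5 works only with an activator, p35 or p39, and all 3 genes had lower means in 5xFAD without passing. Cdk5 (ENSMUSG00000028969.11) read 1240, 1068 and 1261 in WT against 1087, 1018 and 1144 in 5xFAD. WT 63 lay among the 5xFAD libraries, and the log2 difference was −0.13 (SE 0.08, 95% interval −0.31 to 0.04, unadjusted p = 0.123). Cdk5r2, which encodes p39, read 1017, 1054 and 1064 in WT against 971, 950.5 and 996 in 5xFAD. All 3 WT libraries lay above all 3 5xFAD libraries, with a log2 difference of −0.10 (SE 0.06, 95% interval −0.23 to 0.02, unadjusted p = 0.0967). Cdk5r1, which encodes p35, read 1385, 1569.9 and 1445 in WT against 1356, 1528 and 1444 in 5xFAD, with overlapping genotypes and a log2 difference of −0.02 (SE 0.07). Each of these genes had a limma adjusted p = 0.9995.

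The stress-activated MAP kinases held both members with an unadjusted p under 0.05. Mapk14 (ENSMUSG00000053436.16), the alpha form of p38, read 780.0, 952 and 812 in WT against 987, 975 and 996 in 5xFAD. The 5xFAD libraries lay close together and above all WT libraries, of which WT 63 came nearest to them. The means were 848 ± 91.7 for WT and 986 ± 10.2 for 5xFAD (SD, n = 3 each). The log2 difference was 0.22 (SE 0.08, 95% interval 0.05 to 0.40, unadjusted p = 0.0189, limma adjusted p = 0.9995). Among 7 astrocyte markers, of which 3 had higher and 4 lower means in 5xFAD, Gfap likewise did not overlap, at 1493 to 2117 in WT and 2397 to 3074 in 5xFAD (log2 difference 0.63, unadjusted p = 0.00451, limma adjusted p = 0.9995). The summed astrocyte markers were 73305 to 82546 in WT and 75119 to 79341 in 5xFAD, and the part of astrocytes in the Mapk14 value was not tested. Mapk10 (ENSMUSG00000046709.19), which encodes JNK3, the JNK found mainly in neurons, read 5812, 5279 and 5544 in WT against 5163, 4701 and 5221 in 5xFAD. Every 5xFAD library lay below every WT library, with a log2 difference of −0.14 (SE 0.06, 95% interval −0.28 to −0.0037, unadjusted p = 0.0452, limma adjusted p = 0.9995). The sum of 9 pan-neuronal markers was 93413 to 98412 in WT and 89370 to 95666 in 5xFAD, 6 of 9 with lower means in 5xFAD, while 8 of 9 noradrenergic markers had higher means, and the part of either list in the Mapk10 value was not tested. Mapk14 was also the member with the smallest p in the authors' deposited table, with a log2 difference of 0.22 (SE 0.10, unadjusted p = 0.0330) after its sign was turned to 5xFAD over WT. It was the only one of the 36 at an unadjusted p under 0.05 there, where 0.731% of all genes with a p were, and 0 members passed after adjustment, against 0.0106% of those genes.

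Without WT 63 and 5xFAD 65, the libraries with the highest cerebellar marker sums, 4 members had an unadjusted p under 0.05, against 6.7% of all tested genes in that fit. Of the 36, 19 were then higher and 17 lower in 5xFAD, and the interval of 34 stayed within 1.25-fold. The 4 libraries left still differed by genotype in those markers, with granule cell sums of 2820 and 4081 in WT against 8608 and 5304 in 5xFAD and Purkinje cell sums of 4014 and 5237 against 12297 and 7233. The libraries left out also had the highest sums of noradrenergic markers, at 14496 in WT 63 and 15962 in 5xFAD 65. The noradrenergic sums that stayed were 12822 and 8063 in WT against 11284 and 12134 in 5xFAD. The part of cerebellar tissue or of noradrenergic neurons in the values of this fit was not tested. Mapk14 then had a log2 difference of 0.32 (SE 0.07, unadjusted p = 0.000752, limma adjusted p = 0.237) and Mapk10 one of −0.13 (SE 0.05, unadjusted p = 0.0249, limma adjusted p = 0.660). Cdk5 was at −0.16 (SE 0.07, unadjusted p = 0.0284, limma adjusted p = 0.681). Abl1 was at 0.24 (SE 0.07, unadjusted p = 0.00567, limma adjusted p = 0.443). By limma 0 of the 36 passed after adjustment, against 0.0548% of all tested genes, and this fit, with 2 libraries of each genotype, was added after seeing the data.

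The other JNK genes and the remaining proline-directed kinases overlapped between the genotypes. Mapk9, which encodes JNK2 and was the most highly counted gene of its role group, read 6307, 6195 and 6431 in WT against 6214, 5732 and 6435 in 5xFAD. Its log2 difference was −0.04 (SE 0.06, 95% interval −0.17 to 0.08), and that of Mapk8, which encodes JNK1, was −0.05 (SE 0.06). Mapk3, which encodes ERK1, read 1504, 1455 and 1571 in WT against 1532, 1489 and 1771 in 5xFAD. The 5xFAD 79 library was the highest and the genotypes overlapped, with a log2 difference of 0.08 (SE 0.07, 95% interval −0.09 to 0.24). Dyrk1a, a kinase that primes tau for GSK3, varied least of the 36, from 1266 to 1303 normalized counts over the 6 libraries, a span of 1.03-fold. Its log2 difference of 0.01 (SE 0.05) turned to −0.0052 with quantile normalization.

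Kinases that answer to calcium and cyclic AMP, and Akt1, had 3 higher and 2 lower values in 5xFAD, and the genotypes overlapped for all 5. Prkacb, a catalytic subunit of protein kinase A and the most highly counted of the 36 genes, read 8812, 9450 and 7911 in WT against 8559, 8603 and 9046 in 5xFAD. The 5xFAD libraries lay within the WT range, with a log2 difference of 0.0053 (SE 0.07, 95% interval −0.15 to 0.16). Prkaca, the other catalytic subunit, had a log2 difference of −0.05 (SE 0.06) and read 4285 to 4868. Per kb of exon, the WT level was 1854 ± 89.1 for Prkaca and 1674 ± 148 for Prkacb normalized counts, a difference within the spread (SD, n = 3).

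Camk2a, the alpha subunit of the calcium/calmodulin-dependent kinase CaMKII, varied most of the members and was singled out with Camk2b after its values were seen. It read 1252, 1602 and 1201 in WT against 1248, 1725 and 1258 in 5xFAD. WT 63 and 5xFAD 65 stood above the other 4 libraries, which lay within 1201 to 1258. WT 63 and 5xFAD 65 were also the libraries with the highest sums of Purkinje and granule cell markers. The same held for noradrenergic markers, at 14496 and 15962, and for 4 forebrain excitatory neuron markers, at 1382 and 1469. Both had the lowest sums of pan-neuronal, oligodendrocyte, astrocyte and microglia markers. Across all 6 libraries the log2 difference of Camk2a was 0.06 (SE 0.16, 95% interval −0.33 to 0.44), the widest interval of the 36, and without those libraries it was 0.03 (SE 0.06). Camk2b, the beta subunit, read 4778, 5658 and 4898 in WT against 5094, 5693 and 4947 in 5xFAD, again with WT 63 and 5xFAD 65 the highest. Its log2 difference was 0.04 (SE 0.08). The part of cerebellar tissue or of any of these cell types in the Camk2a and Camk2b values was not tested.

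**Figure D3:**
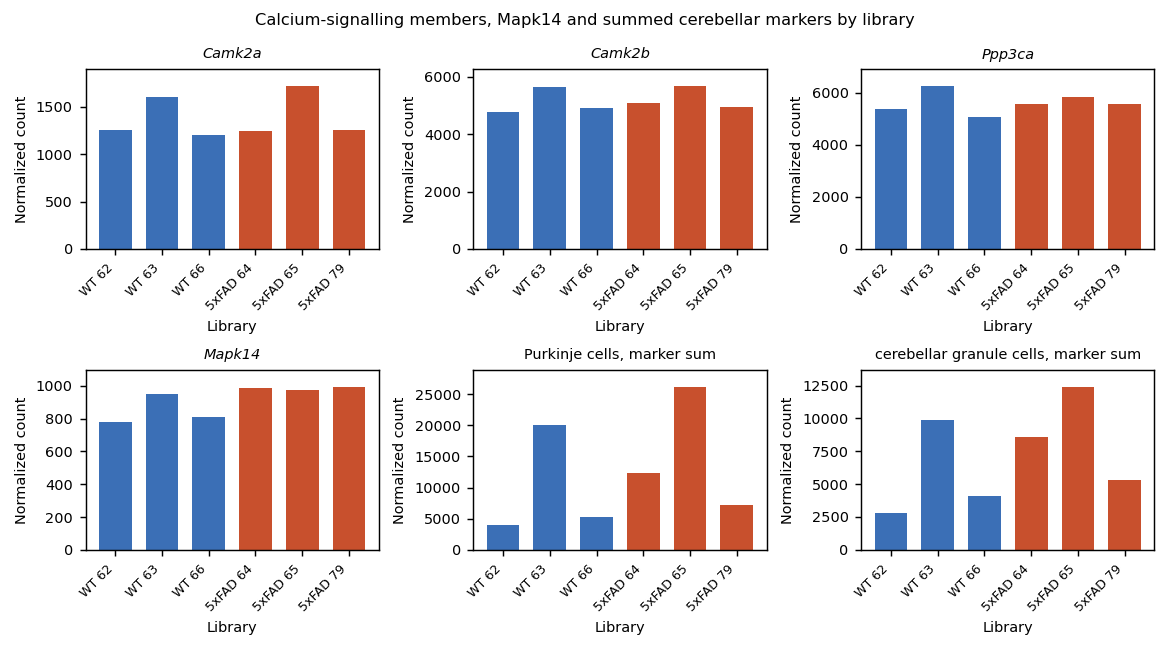
Normalized counts of Camk2a, Camk2b, Ppp3ca and Mapk14, and summed normalized counts of 5 Purkinje cell and 7 granule cell markers, in each library (bars from 0; blue WT, red 5xFAD). WT 63 and 5xFAD 65 are the highest of their genotype in both marker sums and in Camk2a, Camk2b and Ppp3ca. They are also the highest of their genotype in noradrenergic and forebrain excitatory marker sums, which are not drawn. WT 63 is the highest WT library for Mapk14 too. Mapk14 reads 975 to 996 in all 3 5xFAD libraries, with 5xFAD 65 the lowest of them.

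MARK kinases, which phosphorylate the microtubule-binding repeats of tau, had 1 higher and 3 lower values in 5xFAD. Mark1, the most highly counted of them, read 1633, 1432 and 1639 in WT against 1509, 1452 and 1611 in 5xFAD, with a log2 difference of −0.04 (SE 0.07, 95% interval −0.20 to 0.12). The other 3 ranged in log2 difference from −0.01 for Mark3 to 0.03 for Mark2, and the interval of every MARK gene excluded a 1.2-fold change. Per kb of exon in WT, Mark1 had the highest level at 371 ± 27.9 normalized counts, followed by Mark3 at 310.4 ± 12.02, Mark4 at 251 ± 8.69 and Mark2 at 181 ± 4.92 (SD, n = 3 each).

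Casein kinases and tau-tubulin kinases also had 0 members at an unadjusted p under 0.05. Ttbk2, a tau-tubulin kinase also required to build primary cilia, read 6608, 5955 and 6110 in WT against 6179, 5513 and 6694 in 5xFAD. The genotypes overlapped widely, and the log2 difference was −0.03 (SE 0.08, 95% interval −0.20 to 0.14). Its count is uncertain, since 30.5% of the 50-base stretches of its transcripts (GENCODE M21, either strand) also occur in transcripts of other genes, nearly all of them of Cdan1. Ttbk1, its relative found mainly in neurons, had a log2 difference of −0.04 (SE 0.06). Csnk1d and Csnk1e, the delta and epsilon forms of casein kinase 1, were at 0.0022 (SE 0.05) and −0.03 (SE 0.06). Csnk2a1, the catalytic alpha subunit of casein kinase 2, was at −0.02 (SE 0.05). Its count is uncertain, with 55.6% of its 50-base stretches shared with other genes, most of them with the gene model Gm10031.

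The tyrosine kinases had higher means in 5xFAD for 3 of 3 genes without passing. Abl1, a cytoplasmic and nuclear kinase, read 837, 893 and 874 in WT against 1005, 865 and 1009 in 5xFAD. Libraries 64 and 79 lay above all WT libraries and 5xFAD 65 lay within their range, with a log2 difference of 0.14 (SE 0.07, 95% interval −0.02 to 0.31, unadjusted p = 0.0862, limma adjusted p = 0.9995). Src read 825, 916 and 905 in WT against 884, 997 and 895 in 5xFAD, with overlap and a log2 difference of 0.07 (SE 0.07). Fyn, a kinase of the postsynaptic membrane that binds tau, read 1496, 1649.9 and 1448 in WT against 1496, 1570.3 and 1609.6 in 5xFAD, with a log2 difference of 0.03 (SE 0.06).

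The subunits of PP2A had 1 higher and 4 lower values, none at an unadjusted p under 0.05. Ppp2ca (ENSMUSG00000020349.5), the alpha catalytic subunit, read 6836, 6592 and 6891 in WT against 6513, 6379 and 6821 in 5xFAD. The genotypes overlapped, with a log2 difference of −0.04 (SE 0.05, 95% interval −0.16 to 0.07). Ppp2cb, the beta catalytic subunit, read 1331, 1287 and 1273 in WT against 1253, 1299.9 and 1265 in 5xFAD, with a log2 difference of −0.03 (SE 0.05). Although Ppp2ca was counted about 5 times as often, the WT levels per kb of exon were 954 ± 22.4 for Ppp2ca and 883 ± 20.4 for Ppp2cb normalized counts (SD, n = 3 each). The count of Ppp2ca is uncertain, because 43.2% of its 50-base stretches also occur in transcripts of other genes, nearly all of them of 9430098F02Rik.

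Ppp2r1a, the alpha scaffold of PP2A, had the highest level per kb of the 36 genes by either measure of length, at 2757 ± 36.8 normalized counts in WT (SD, n = 3). It read 6711, 6544 and 6679 in WT against 6464, 6466 and 6658 in 5xFAD, with overlap and a log2 difference of −0.03 (SE 0.05, 95% interval −0.13 to 0.08). Ppp2r2a, the regulatory subunit B55 alpha that directs the trimer to tau, read 1703, 1672 and 1596 in WT against 1698, 1558 and 1777 in 5xFAD, with a log2 difference of 0.02 (SE 0.06, 95% interval −0.13 to 0.16) and 6.24% of its 50-base stretches shared with the gene model Gm19221. Ppp2r2b, the B55 beta form found mainly in neurons, read 1804, 1677 and 1572 in WT against 1558, 1413 and 1744 in 5xFAD. The 5xFAD 79 library lay within the WT range and the log2 difference was −0.10 (SE 0.08, 95% interval −0.29 to 0.08).

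The other phosphatases differed by no more than 0.03 on the log2 scale. Ppp3ca, the alpha catalytic subunit of the calcium-dependent phosphatase calcineurin, read 5382, 6279 and 5080.3 in WT against 5579, 5834 and 5568 in 5xFAD. WT 63 was the highest library and the 5xFAD libraries lay within the WT range, with a log2 difference of 0.03 (SE 0.08, 95% interval −0.15 to 0.20). Ppp3cb, the beta form, was at −0.01 (SE 0.05), and Ppp1ca, a catalytic subunit of protein phosphatase 1, was at 0.0064 (SE 0.06). The count of Ppp1ca is uncertain, with 19.7% of its 50-base stretches shared with other genes, Rad9a among them. Ppp3cb turned to 0.00058 with quantile normalization. Summed over the 8 phosphatase genes, normalized counts were 29613 ± 727 in WT and 29229 ± 474 in 5xFAD, and over the 28 kinase and activator genes they were 73272 ± 912 and 72422 ± 2074 (SD, n = 3 each).

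The proportions of closely related genes differed between the genotypes by at most 0.12 on the log2 scale. The log2 ratio of 19 pairs was compared between genotypes with a two-sided exact permutation test, which for 3 against 3 libraries allows no p under 0.1, so that no pair could pass. The median absolute difference over the pairs was 0.04. Gsk3b to Gsk3a read 2.47, 2.49 and 2.39 in WT against 2.44, 2.39 and 2.40 in 5xFAD as a ratio of normalized counts (exact permutation p = 0.3). Ppp2cb to Ppp2ca read 0.195, 0.195 and 0.185 in WT against 0.192, 0.204 and 0.185 in 5xFAD (exact permutation p = 0.9).

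The genotypes did not overlap for 3 of the 19 pairs (15.8%), each at the smallest possible p of 0.1 (exact permutation test, adjusted p = 0.633 over the pairs). That p is also the share of label assignments that separate a pair completely. The count is therefore not read as a result about the pairs. Mapk10 to Mapk9 read 0.922, 0.852 and 0.862 in WT against 0.831, 0.820 and 0.811 in 5xFAD, a log2 difference of −0.10. Mapk10 to Mapk8 read 3.00, 2.84 and 2.76 in WT against 2.76, 2.67 and 2.65 in 5xFAD, a log2 difference of −0.09. Both ratios share Mapk10, so they are not independent. Ppp2r2b to Ppp2r2a read 1.06, 1.00 and 0.985 in WT against 0.918, 0.907 and 0.981 in 5xFAD, a log2 difference of −0.12 in which WT 66 and 5xFAD 79 nearly met.

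**Figure D4:**
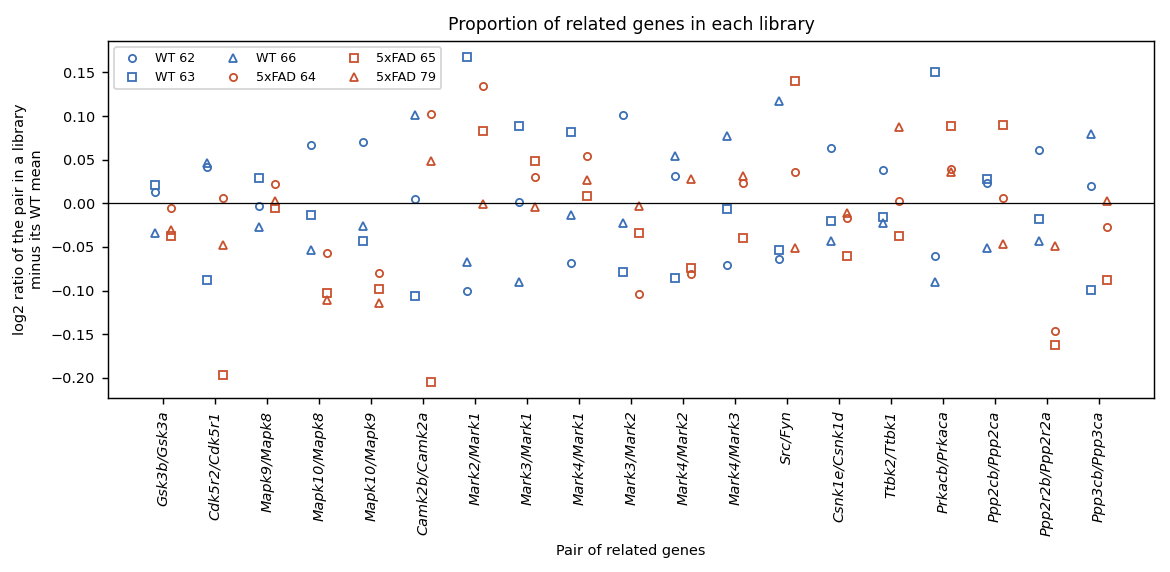
Log2 ratio of normalized counts of 19 pairs of related genes in each library, minus the WT mean of that pair; each point is 1 library (blue WT, red 5xFAD, symbols as named in the legend). The 3 red points lie below the 3 blue points for Mapk10/Mapk8, Mapk10/Mapk9 and Ppp2r2b/Ppp2r2a, and the genotypes overlap for the other 16 pairs.

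Among the libraries, 5xFAD 65 gave the lowest value for 17 of the 36 genes (47.2%), where it gave the lowest for 21.3% of all tested genes. It was also the lowest in the sum of pan-neuronal markers, at 89370 normalized counts, and in the sum of 8 oligodendrocyte markers, at 209634, where 5xFAD 79 was the highest at 325494. All 8 oligodendrocyte markers had higher means in 5xFAD, and 0 passed the limma test or had an unadjusted p under 0.05. The 5xFAD 79 library gave the highest value for 10 members (27.8%) and the lowest for 0, against 16.0% and 15.6% of all tested genes. The median deviation of the members from their mean over the 6 libraries was −0.05 in 5xFAD 65 and 0.03 in 5xFAD 79 on the log2 scale, against 0.0022 and 0.0041 over all tested genes. The part of cell type makeup in this spread was not tested.

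Mapt, the gene of the substrate, read 9923, 9255 and 8868 in WT against 9524, 9614 and 9808 in 5xFAD, with a log2 difference of 0.05 (SE 0.06, 95% interval −0.08 to 0.17). The 5xFAD libraries lay within the WT range. Per kb of exon its WT level was 1464 ± 83.6 normalized counts (SD, n = 3). On that scale 3 of the 36 enzyme genes, Ppp2r1a, Prkaca and Prkacb, lay above it.

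A wider list of 100 genes held relatives of these kinases, other kinases described on tau, upstream kinases, further phosphatase subunits and phosphatase inhibitors and activators. All 100 were measured above the filter, with 57 higher and 43 lower in 5xFAD and a median log2 difference of 0.01. The limma test called 0 of them, with 0 at an unadjusted p under 0.05, against 2.32% of all tested genes, and edgeR and DESeq2 also called 0. The genotypes did not overlap for 5 (Calm2, Mapk13, Map2k6, Ywhaz and Prkar1a), against 7.42% of all tested genes. Calm2, 1 of the genes for calmodulin, which calcineurin and CaMKII need, read 14149.5, 14572 and 14165 in WT against 13094, 13512.5 and 13159.9 in 5xFAD. All WT libraries lay above all 5xFAD libraries, with a log2 difference of −0.11 (SE 0.05, limma adjusted p = 0.9995).

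The other wider genes with the smallest p included low and high counts. Mapk13, the delta form of p38, was barely read, at 9.29 to 16.3 normalized counts in WT and 18.0 to 30.04 in 5xFAD, with a log2 difference of 0.67 (SE 0.35). Mapk12, the gamma form, was at 0.20 (SE 0.13). Prkaa1, a catalytic subunit of AMP-activated kinase, was at −0.12 (SE 0.07). Ptpn5, the striatal-enriched phosphatase that acts on Fyn, was at −0.09 (SE 0.06). Ppp3cc, the gamma subunit of calcineurin, was at −0.15 (SE 0.10). Strn4, a striatin that binds PP2A, was at 0.10 (SE 0.06). Ppp1r1b, the inhibitor of protein phosphatase 1 known as DARPP-32, was at 0.26 (SE 0.16), with its highest value in 5xFAD 65.

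Wide intervals among well-read genes of this list included those of Sgk1 and Camk4, which were named after their values were seen. Sgk1, a kinase induced by stress hormones, had a log2 difference of 0.93 with an interval that left room for an 8.77-fold change. Camk4, a calcium-dependent kinase abundant in cerebellar granule cells, was at 0.50 with room for 2.72-fold. For 90 of the 100 genes the 95% interval excluded a 1.5-fold change, against 71.4% of all tested genes. The 100 genes had means of 8.28 to 32766 normalized counts. No share among genes of matched level was computed for them, so these shares do not show that the list was unusually stable.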

How the data were processed

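Gene-level values of 3 WT and 3 5xFAD libraries came from 1 deposited table. STAR, RSEM and DESeq2 with build mm39 appear in the submitters' processing notes, without versions. The deposited values, named TPM, were whole reads per gene divided by 1 factor per library (all values whole within 0.001 reads), that is, a normalized count or signal. The authors also deposited log2 fold changes of WT over 5xFAD, a test score and p-values, and their sign was turned here. Symbols were matched for 52073 of 56923 genes (91.5%).

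Genes with at least 10 normalized counts in at least 3 libraries were tested with limma 3.58.1 (trend, robust; R 4.3.3) on log2(normalized count + 1), with Benjamini-Hochberg adjustment at 0.05. A fold change on that scale understates the change of low genes. Alternatives were edgeR 4.0.16 quasi-likelihood and DESeq2 1.42.0 on recovered reads, quantile normalization, pseudocounts of 0.5 and 4, no filter, a filter of 50, no trend or robust step, and each library left out. The fit was also run on simulated counts. These held no differences in cell makeup between libraries, and the outcome is not reported here. Exon lengths and shared 50-base stretches came from GENCODE M21 on GRCm38, not the authors' build, so no coordinates are given.

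Members and lists were chosen with earlier results of these data known. Values per library are printed for the 8 members with the smallest p, the most highly counted member of each role group, and the GSK3, CDK5 and main PP2A genes. For the wider list, the 8 with the smallest p are named.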

Additional observations from a re-analysis of the deposited data

How the results depend on the processing

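Under each of the 15 alternatives run for it, limma, edgeR or DESeq2 called 0 of the 36 members and 0 of the 100 wider genes. Members at an unadjusted p under 0.05 numbered 2 in the reported limma fit, 1 with DESeq2 and 0 without the variance trend and robust step. They numbered 0 without WT 62, without WT 66 or without 5xFAD 64, and 3 without WT 63. The log2 difference of Mapk14 ranged from 0.17 to 0.31 over the fits that left out 1 library. The number of members with a 95% interval within 1.25-fold was 34, falling to 30 without the trend and robust step and to between 31 and 34 with a library left out.

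Of 540 values of single members under an alternative, 46 changed sign, over 21 members whose reported log2 difference was at most 0.06 in size. The other 15 members kept their sign in every alternative run. Csnk1d was at −0.00060 with edgeR and −0.0014 with quantile normalization. Prkacb was at −0.00013 with edgeR. With quantile normalization Dyrk1a was at −0.0052 and Ppp3cb at 0.00058.

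With libraries left out, the log2 difference ranged from −0.020 to 0.024 for Gsk3a, −0.042 to 0.011 for Gsk3b, −0.0805 to 0.0030 for Mapk9, −0.066 to 0.026 for Cdk5r1, −0.097 to 0.19 for Camk2a and −0.022 to 0.11 for Camk2b. It ranged from −0.063 to 0.076 for Prkacb, −0.048 to 0.031 for Akt1, −0.041 to 0.017 for Mark3, −0.050 to 0.035 for Mark4, −0.027 to 0.031 for Csnk1d and −0.043 to 0.0063 for Csnk1e. The range was −0.033 to 0.0042 for Csnk2a1, −0.074 to 0.0036 for Ttbk1, −0.0915 to 0.049 for Ttbk2, −0.012 to 0.082 for Fyn and −0.027 to 0.075 for Ppp2r2a. It was −0.032 to 0.034 for Ppp1ca, −0.039 to 0.11 for Ppp3ca and −0.037 to 0.030 for Ppp3cb. The cause of these sign changes was not tested.

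No paired analysis was possible because the genotypes share no replicate number. With 3 libraries of each genotype, changes within the printed intervals were not excluded. The intervals are not limits of detection, since calls used p-values adjusted over all 16411 tested genes. Mapk14, with an interval that left out 0, was not called. Transcript levels say nothing of kinase activity or of phosphate on tau.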
